A study of Cyprinus carpio with 6 samples.

Results

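Cryptochromes are clock repressors, and 8 of the 53152 rows of the deposited carp gene table are described as cryptochrome-1 or cryptochrome-2. They were taken by searching the table's description column for either name in any case, which gave 2 rows of cryptochrome-2 and 6 of cryptochrome-1. The study sequenced polyadenylated RNA from the brain of common carp (Cyprinus carpio) in 6 libraries, 3 labelled with lead as the agent and 3 labelled with none, the controls. Its title asks about injury of the carp brain by lead. Dose, duration, strain, age, hour of sampling and light schedule are not in the labels. Nothing says that the libraries came from separate fish, so the p-values here cover the spread between the libraries alone, and that spread may be technical.

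The cryptochromes of animals descend from light-driven DNA repair enzymes, the photolyases. In vertebrates the cryptochrome-1 and cryptochrome-2 proteins join PERIOD proteins in the nucleus and inhibit CLOCK and BMAL1, the activators that switch on the cryptochrome and period genes, and this loop gives a daily cycle in many tissues, the brain among them. In zebrafish, transcription of cry1a is induced by light. Common carp descends from a genome duplication, so genes often stand in paired copies.

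The 8 rows were chosen by name, and the family was selected on its fold changes and adjusted p-values of lead against control, in which both cryptochrome-2 rows had already been called. All values of lead against control for these rows are therefore a description, and their p-values, from a fit over all genes, are given as part of it. Total counts were 27841520 to 32826120 in lead libraries and 31159339 to 34848243 in control libraries. All 8 rows passed the filter of 1 FPKM (the authors' fragments per kilobase of a transcript and per library size) in at least 3 libraries, although LOC109061929 lay under 1 FPKM in lead replicate 3. Neuron markers summed to 3683 to 4067 TMM-scaled CPM in lead and 3523 to 4647 in control libraries. This CPM is the count relative to the library's total over rows that passed the filter, the totals scaled between libraries. Astroglial markers summed to 3696 to 4237 in lead and 3766 to 4570 in control libraries. Both marker sums fit the tissue label.

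The rows are grouped below into 3 sets by their neighbours, plus 1 row apart. The last of these sets, at cry1b, rests on 1 shared neighbour alone. The cryptochrome-2 rows are LOC109050575, from 1926875 to 1928893 on the plus strand of NC_031745.1, and LOC109066089, from 128601 to 145287 on the minus strand of NW_017538295.1. Both have a row described as a C11orf49 homolog within their nearest rows, 19779 bases from LOC109050575 and 17943 bases from LOC109066089. Positions are as the table gives them, on an assembly that the sources used here do not name.

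The rows at cry1a share scaffold NW_017543042.1 and the plus strand. LOC109083080, which RefSeq (assembly ASM1834038v1, used for names and gene order only) calls cry1a, runs from 276184 to 287374. LOC109083132 runs from 350730 to 357855, and LOC109083082 follows it after 396 bases, from 358252 to 361141. RefSeq holds LOC109083082, without a cry name, but no LOC109083132. The name cry1a rows is used below only as a label for the rows on this scaffold. In its gene order both LOC109083080 and LOC109083082 stand between a gene described as BTBD11-A and one described as poly(U)-specific endoribonuclease-C. A further RefSeq gene without a row in the deposited table stands between each and the endoribonuclease gene (LOC122141537 and LOC122137008). LOC109083132 and LOC109083082 thus have the same description and strand and stand side by side, and RefSeq holds only the latter. Whether they are pieces of 1 gene was not tested.

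The rows at cry1b are LOC109109949, which RefSeq names cry1b, from 4998889 to 5008039 on the minus strand of NC_031732.1, and LOC109069230, from 66343 to 76235 on the minus strand of NW_017539113.1. In RefSeq's order both have a gene described as MLC1 as their next neighbour but 1. No other description was shared among their nearest RefSeq genes, and 1 gene beside LOC109109949 has no description here. LOC109069230 has no cry name in RefSeq and stands there between btbd11b and a gene described as carbohydrate sulfotransferase 1. A gene described as BTBD11-A also stands beside LOC109083080 and LOC109083082, and a carbohydrate sulfotransferase 1 gene beside LOC109066089. Placing LOC109069230 at cry1b rests on the MLC1 neighbour alone, and the name cry1b rows is used below only as a label for the pair. The row apart is LOC109061929, from 30607 to 33094 on the plus strand of NW_017538191.1, with no RefSeq entry. The next rows after it in the table are a collagen alpha-1(II) row and gpr37l1b, and in RefSeq the gene between a collagen alpha-1(II) gene and gpr37l1b is cry3a. The table's gene ontology terms for LOC109061929 include responses to light and to temperature, as do those of LOC109066089, while the other 5 cryptochrome-1 rows have no temperature term. The other cryptochrome-2 row, LOC109050575, has neither of these terms. By gene order alone the cryptochrome-1 label of LOC109061929 is in doubt, and no sequence was compared.

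Both cryptochrome-2 rows rose with lead, and their mean CPM in lead was 3.58 times (LOC109050575) and 3.83 times (LOC109066089) that in control libraries. LOC109050575 had 86.6, 109 and 100 TMM-scaled CPM in lead replicates 1, 2 and 3, against 24.4, 34.2 and 24.2 in control replicates 1, 2 and 3. LOC109066089 had 77.3, 99.6 and 102.3 CPM in the lead libraries, against 21.6, 21.1 and 30.2 in the control libraries. For both rows every lead library lay above every control library, and lead replicate 1 was the lowest of the lead libraries. In bulk RNA, fewer or more cells that use a gene and less or more of its RNA in each cell cannot be told apart.

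LOC109050575 averaged 98.6 ± 11.4 CPM in lead and 27.6 ± 5.72 in control libraries (SD, n = 3 each), and its fitted log2 fold change was 1.84 (with SE 0.19 and edgeR adjusted p = 0.0246). LOC109066089 averaged 93.1 ± 13.7 CPM in lead and 24.3 ± 5.09 in control libraries (SD, n = 3 each), and its fitted log2 fold change was 1.94 (with SE 0.20 and edgeR adjusted p = 0.0246). The rows ranked 13 and 14 by p among the 32149 genes tested. In that fit 19 genes, or 0.0591% of those tested, were called at an adjusted p under 0.05, and 15, or 0.0467%, were called higher, these 2 rows included. None of the 8 rows was called lower by edgeR, against 4 genes in all, or 0.0124%, while 2 of the 8 were lower at an unadjusted p under 0.05, against 8.77% of all genes, and DESeq2 called 1 of the 8 lower.

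Most of these calls were lost when 1 library was left out. LOC109050575 had edgeR adjusted p-values of 0.0618, 0.113 and 0.0728 without lead replicates 1, 2 and 3, and of 0.0820, 0.0228 and 0.123 without control replicates 1, 2 and 3. LOC109066089 had 0.0537, 0.113 and 0.0722 without lead replicates 1, 2 and 3, and 0.0849, 0.0654 and 0.0473 without control replicates 1, 2 and 3. The log2 fold changes without 1 library stayed between 1.74 and 2.01 for LOC109050575 and between 1.84 and 2.12 for LOC109066089.

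**Figure D1:**
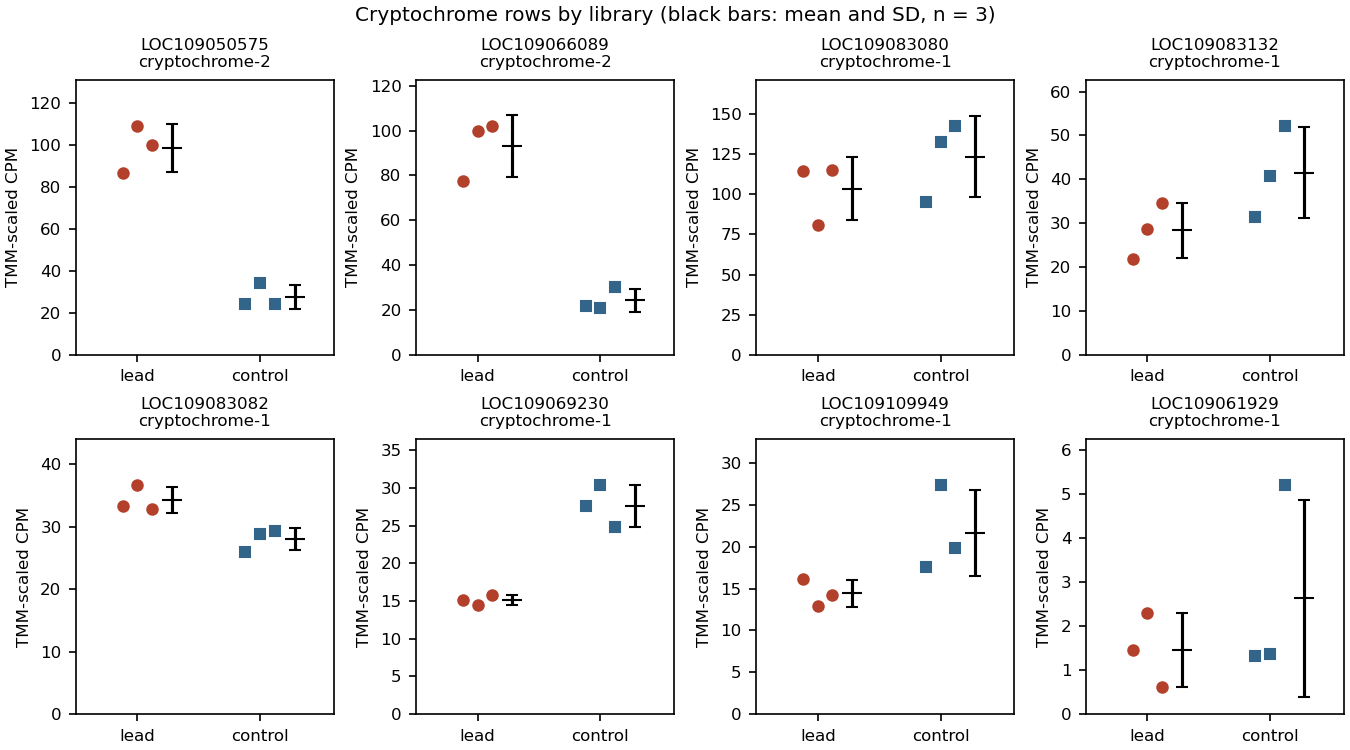
Each panel plots 1 cryptochrome row, with TMM-scaled CPM of the 3 lead libraries (circles) left of the 3 control libraries (squares) and the mean and SD of each group as black bars. LOC109050575 reached 86.6 to 109 in lead and 24.2 to 34.2 in control libraries, while LOC109061929 is stretched by 1 control library.

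Per length of transcript, LOC109050575 was the more abundant cryptochrome-2 row, with 65.2 ± 7.66 FPKM in lead and 19.5 ± 3.52 in control libraries (SD, n = 3 each). LOC109066089 had 25.6 ± 4.22 FPKM in lead and 7.20 ± 1.69 in control libraries (SD, n = 3 each). LOC109050575 made up 71.9 ± 1.49% of the summed FPKM of both rows in lead and 72.8 ± 6.87% in control libraries (SD, n = 3 each), and the groups overlapped. By counts, without regard to length, its share was 51.5 ± 1.83% in lead and 53.1 ± 8.67% in control libraries (SD, n = 3 each), also with overlap. The FPKM values imply lengths of 1443 bases for LOC109050575 and 3471 bases for LOC109066089. The balance of the copies therefore differed by less than the spread between control libraries. LOC109050575 spans only 2019 bases and its listed transcript has an accession of the predicted non-coding kind, while LOC109066089 spans 16687 bases and has a coding one. The sources used here do not say how reads that match both copies were assigned, so the levels of single copies are uncertain.

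The cry1b rows had lower values in lead libraries, without passing the adjusted threshold. LOC109069230 had 15.2, 14.4 and 15.8 CPM in lead replicates 1, 2 and 3, against 27.6, 30.4 and 24.8 in control replicates 1, 2 and 3. The groups did not overlap, and the lead libraries lay close together. It averaged 15.1 ± 0.663 CPM in lead and 27.6 ± 2.82 in control libraries (SD, n = 3 each), and its fitted log2 fold change was -0.87 (with SE 0.16 and edgeR adjusted p = 0.143). DESeq2 gave it an adjusted p of 0.00057 and called it lower, among 2.23% of the genes DESeq2 tested.

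LOC109109949, the row named cry1b, had 16.1, 12.9 and 14.2 CPM in the lead libraries, against 17.6, 27.4 and 19.9 in the control libraries. Every lead library was again below every control library, by a small margin at the nearest pair. Its log2 fold change was -0.58 (SE 0.21, edgeR adjusted p = 0.254), from 14.4 ± 1.59 CPM in lead and 21.6 ± 5.14 in control libraries (SD, n = 3 each). Summed, the cry1b rows had 29.5 ± 1.98 CPM in lead and 49.2 ± 7.45 in control libraries (SD, n = 3 each), and the groups did not overlap. By FPKM, LOC109069230 made up 52.3 ± 2.40% of the pair in lead and 57.5 ± 4.31% in control libraries (SD, n = 3 each), with overlap.

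Of the 8 rows, 3 were higher without overlap, both cryptochrome-2 rows and LOC109083082, and 2 were lower without overlap, both at cry1b. Over all genes tested, 11.9% were higher and 12.6% lower without overlap. The log2 fold change was below 0 in 5 of the 6 cryptochrome-1 rows, with a median of -0.57 over the 6. None of the 6 was called by edgeR. They include LOC109061929, whose label is in doubt and which turned to 0.11 without control replicate 3. LOC109083132 and LOC109083082, of opposite sign, may be pieces of 1 gene, and their sum was at -0.15. The share of all genes below 0 was not counted. The median was 1.89 over the cryptochrome-2 rows and -0.01 over all genes tested.

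**Figure D2:**
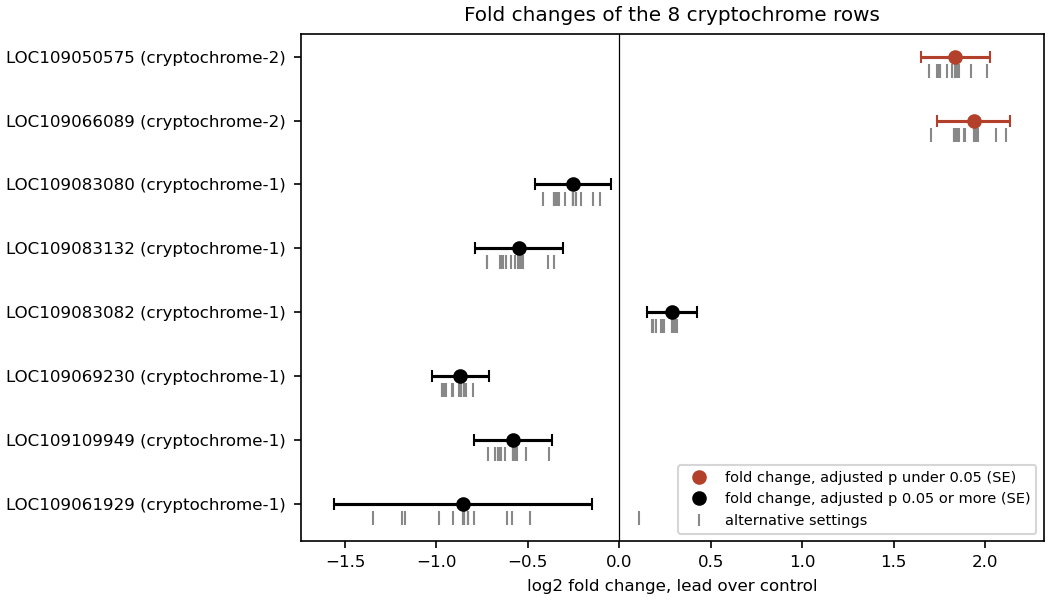
Log2 fold changes of lead over control (x axis) for the 8 rows (y axis), with SE as bars, and grey ticks for each alternative setting. The cryptochrome-2 rows are at 1.84 and 1.94. Of the 6 cryptochrome-1 rows 5 are below 0, none of the 6 called by edgeR with all libraries. The only tick across 0 belongs to LOC109061929.

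The cry1a rows held most of the cryptochrome-1 signal and did not separate the groups as a whole. LOC109083080 had 114.4, 80.8 and 115.0 CPM in lead replicates 1, 2 and 3, against 95.2, 132.3 and 142.7 in control replicates 1, 2 and 3. The groups overlapped, with the lowest value in lead replicate 2. Its means were 103.4 ± 19.6 CPM in lead and 123.4 ± 24.97 in control libraries (SD, n = 3 each), and its log2 fold change was -0.25 (SE 0.21, edgeR adjusted p = 0.569). The 3 rows at cry1a summed to 166 ± 18.5 CPM in lead and 193 ± 36.6 in control libraries (SD, n = 3 each), with overlap.

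The adjoining rows at cry1a pointed in opposite directions. The upstream row, LOC109083132, had 21.96, 28.6 and 34.6 CPM in the lead libraries, against 31.5, 40.8 and 52.3 in the control libraries. The downstream row, LOC109083082, had 33.3, 36.7 and 32.9 CPM in the lead libraries, against 26.0, 28.9 and 29.3 in the control libraries. The upstream row overlapped between groups, while every lead library was above every control library for the downstream row. LOC109083132 had a log2 fold change of -0.55 (with SE 0.24 and edgeR adjusted p = 0.308) and LOC109083082 one of 0.29 (SE 0.14, edgeR adjusted p = 0.347). LOC109083082 was among the steadiest of the 8, with a coefficient of variation of 6.13% in lead and 6.38% in control libraries, against medians of 20.3% and 20.6% over all genes tested.

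The count of the upstream row divided by that of the downstream row was 0.660, 0.779 and 1.05 in lead replicates 1, 2 and 3, against 1.21, 1.41 and 1.78 in control replicates 1, 2 and 3. All 3 lead ratios lay below all 3 control ratios. The mean log2 ratio was lower by 0.83 in lead libraries. Counted as 1 row, a choice made after the data were seen, the upstream and downstream rows gave 62.7 ± 6.53 CPM in lead and 69.6 ± 12.03 in control libraries (SD, n = 3 each). The log2 fold change of that sum was -0.15 (SE 0.17, edgeR adjusted p = 0.687).

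The same tilt appeared across the table. In all, 78 pairs of adjacent rows had 1 description, 1 strand, a gap of at most 1000 bases and mean counts of at least 100 in each row, a set also defined after the data were seen. Both rows had counts in every library, and rows described as hypothetical, uncharacterized or unnamed were left out. The pairs hold 152 distinct rows, because some rows stand in more than 1 pair, so the pairs are not independent. In 68 of the 78 pairs the mean log2 ratio of upstream to downstream counts was lower in lead than in control libraries. The median difference was -0.35, with quartiles of -0.68 and -0.14 and a range from -1.81 to 0.62. The groups did not overlap in 25 pairs, all lower in lead, and 11 pairs, the cryptochrome-1 pair among them, were at -0.83 or lower. Centred on its mean over the libraries, the median pair stood at -0.38, -0.22 and -0.05 in lead replicates 1, 2 and 3, against 0.12, 0.04 and 0.44 in control replicates 1, 2 and 3. Upstream rows are the 5′ side of the strand, and lead replicate 1 and control replicate 3 were the extremes. The part of this shift in the differences of the cryptochrome rows was not tested.

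**Figure D3:**
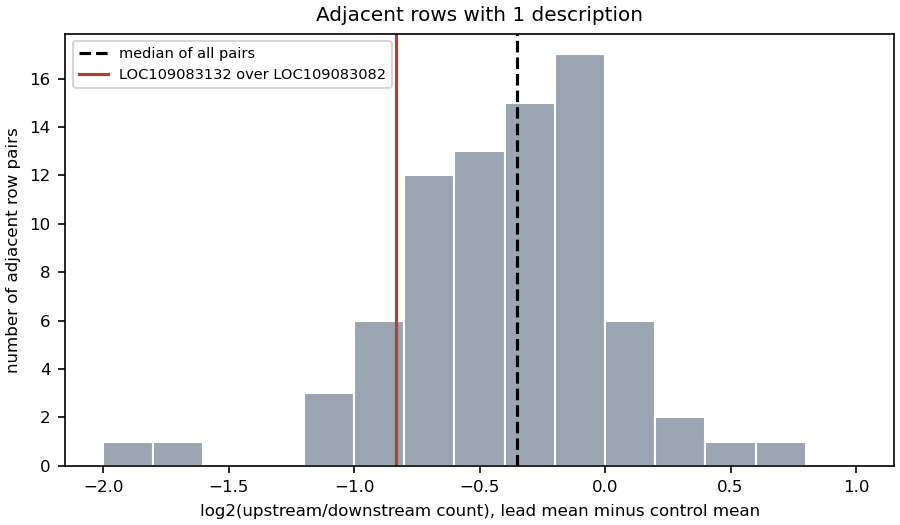
Number of adjacent row pairs (y axis) by the difference between lead and control means of log2 upstream over downstream count (x axis), in bins, for 78 pairs. The dashed line is the median of -0.35 and the solid line the cryptochrome-1 pair at -0.83.

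LOC109061929, the row beside genes that flank cry3a in RefSeq, was rare and rested on 1 library. It had 43, 60 and 20 counts in lead replicates 1, 2 and 3, against 47, 44 and 170 in control replicates 1, 2 and 3. Control replicate 3 alone stood high and the rest overlapped. Its log2 fold change was -0.85 (SE 0.71, edgeR adjusted p = 0.574) with all libraries, and 0.11 without control replicate 3.

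The order of the rows by level differed between the groups. In lead libraries, in FPKM, LOC109050575 of cryptochrome-2 stood highest and apart from the rest. LOC109083080 (37.9 ± 7.88) and LOC109083082 (37.2 ± 1.71) came next and overlapped, followed by LOC109066089 and LOC109083132 (17.9 ± 4.48), which also overlapped. LOC109069230 (4.94 ± 0.368) and LOC109109949 (4.53 ± 0.515) overlapped below them, and LOC109061929 was lowest (FPKM, SD, n = 3 each). In control libraries LOC109083080 led with 48.5 ± 10.1 FPKM (SD, n = 3), apart from the rest. LOC109083082 (32.8 ± 2.29), LOC109083132 (28.2 ± 7.53) and LOC109050575 came after it, each overlapping the next. LOC109069230 (9.69 ± 0.732), LOC109109949 (7.26 ± 1.56), LOC109066089 and LOC109061929 (3.95 ± 3.46) made a lower series, each overlapping the next (FPKM, SD, n = 3 each).

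Summed over copies, cryptochrome-2 had 77.4, 97.5 and 97.6 FPKM in lead replicates 1, 2 and 3, against 23.8, 29.6 and 26.7 in control replicates 1, 2 and 3. Cryptochrome-1 summed to 102, 97.3 and 114 FPKM in the lead libraries, against 107, 132 and 153 in the control libraries. The cryptochrome-2 sums were separate between groups and the cryptochrome-1 sums overlapped. Cryptochrome-2 made up 43.1%, 50.1% and 46.1% of the summed FPKM of the 8 rows in the lead libraries, against 18.2%, 18.4% and 14.9% in the control libraries. The adjoining rows at cry1a count separately in these sums. In CPM, the ratio of the lead mean to the control mean was 3.70 for cryptochrome-2, with 192 ± 24.2 in lead and 51.9 ± 5.12 in control libraries, and 0.805 for cryptochrome-1, with 197 ± 19.2 in lead and 245 ± 40.1 in control libraries (SD, n = 3 each).

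**Figure D4:**
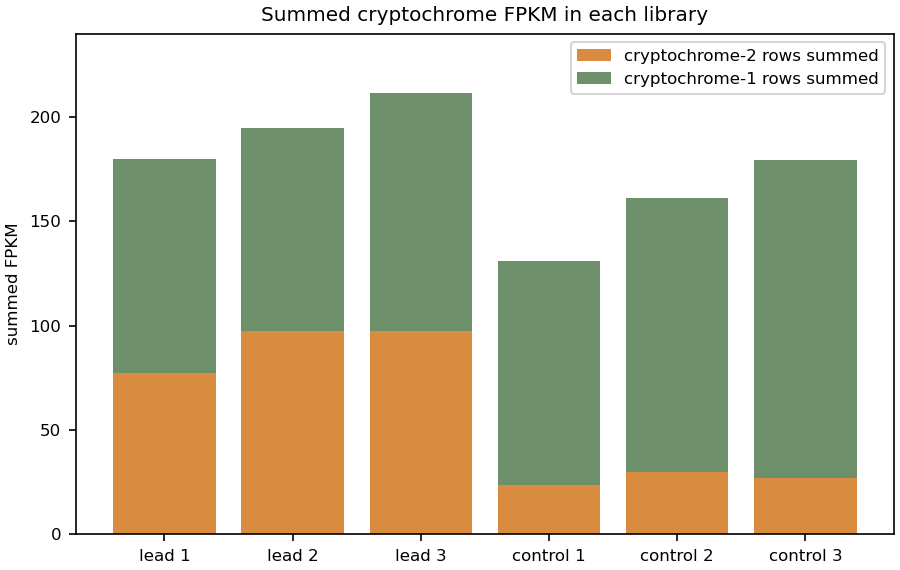
Stacked bars of summed FPKM (y axis) of the cryptochrome-2 rows (lower segment) and the cryptochrome-1 rows (upper segment) in each library, lead left of control. The lower segment is 77.4 to 97.6 in lead and 23.8 to 29.6 in control libraries.

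The summed markers of several cell types overlapped between the groups. Summed CPM was 3452 to 3879 in lead and 3265 to 6492 in control libraries for oligodendrocyte markers, 81.2 to 123 in lead and 86.9 to 123 in control libraries for photoreceptor markers, and 1019 to 1450 in lead and 836 to 1222 in control libraries for red blood cell markers. For skeletal muscle markers it was 24.8 to 32.7 in lead and 24.9 to 32.0 in control libraries. Pituitary markers ranged over 78.2 to 94.9 in lead and 71.8 to 80.1 in control libraries, with overlap. Single marker rows did separate them. LOC109067327 is described as the cone phosphodiesterase subunit alpha-prime, part of an enzyme of the light response in cone photoreceptors. It had 0.677, 0.230 and 0.555 CPM in lead replicates 1, 2 and 3, against 14.3, 14.7 and 11.3 in control replicates 1, 2 and 3. It was called lower, the only call among 12 tested photoreceptor rows (log2 fold change -4.76, SE 0.41, edgeR adjusted p = 0.0132). Of those 12 rows, 6 had a log2 fold change above 0 and 6 below, with a median of 0.05. Unadjusted edgeR p-values under 0.05 went to 1 higher and 1 lower photoreceptor row. Glial fibrillary acidic protein, an astroglial filament, also separated the groups, with 356 to 402 CPM over 2 rows in lead and 576 to 647 in control libraries. Of the 11 tested rows among 12 astroglial marker rows, 0 were called by edgeR, and unadjusted p-values under 0.05 went to 5 lower and 0 higher rows, with 1 of the 12 at 0 in all libraries. Neuron markers had 9 lower and 1 higher of 35 tested rows at that threshold, and oligodendrocyte markers 4 lower and 0 higher of 15, with 0 called by edgeR in either list. The same threshold took 8.77% of all genes tested as lower and 7.53% as higher. The part of these marker rows in the cryptochrome differences was not tested.

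Rows around the cryptochromes were also read. Among the 2 nearest rows on each side, 23 tested rows were not cryptochromes. Of these, 0 had an edgeR adjusted p under 0.05 and 5 had an unadjusted p under 0.05, 3 higher and 2 lower, against 7.53% higher and 8.77% lower over all genes tested. Their log2 fold changes ran from -1.40 to 1.10. The C11orf49 homolog near LOC109050575 (LOC109050869) had a log2 fold change of 0.85 (with SE 0.25 and edgeR adjusted p = 0.209), and the one near LOC109066089 (LOC109066083) had 0.01 (SE 0.20, edgeR adjusted p = 0.978).

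Other genes of the clock loop were read from lists of the same table. Of 3 other cryptochrome and photolyase rows, 0 were called in either direction by edgeR, and at an unadjusted p under 0.05 there was 1 higher and 1 lower row, where all genes tested gave 7.53% higher and 8.77% lower. The lower one was cryptochrome DASH (LOC109045424), a relative of the photolyases, with 1.08, 1.497 and 1.39 CPM in lead and 3.21, 2.33 and 3.07 in control libraries, a log2 fold change of -1.12 (with SE 0.37 and edgeR adjusted p = 0.226). The higher one was a photolyase (LOC109050386), which repairs DNA damaged by ultraviolet light, with 4.87, 7.64 and 8.48 CPM in lead and 4.47, 3.598 and 4.54 in control libraries. Its log2 fold change was 0.74 (SE 0.30, edgeR adjusted p = 0.285), and neither row overlapped between groups. The remaining row, also cryptochrome DASH (LOC109050256), was lower without overlap too, at -0.64 (SE 0.36, edgeR adjusted p = 0.408). Over all genes tested, 11.9% were higher and 12.6% lower without overlap.

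Of 29 tested rows for some of the ligase parts, deubiquitinases and kinases that set the stability of clock repressors, 0 were called in either direction by edgeR. At an unadjusted p under 0.05, 4 were higher and 5 lower, beside the shares of 7.53% and 8.77% over all genes, and the median over the list was -0.04 on the log2 scale. The smallest p-values belonged to a deubiquitinase, usp2 (LOC109086531), with a log2 fold change of 0.55 (with SE 0.17 and edgeR adjusted p = 0.219), and to glycogen synthase kinase-3 beta (LOC109111355), with -0.55 (SE 0.18, edgeR adjusted p = 0.222).

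Among the partners of cryptochrome in repression, 0 of 6 period rows were called by edgeR, and unadjusted p-values under 0.05 went to 0 higher rows and 1 lower row. The 2 of smallest p were period 2 rows, LOC109065759 at -1.54 (SE 0.52, edgeR adjusted p = 0.234) and LOC109098978 at 0.44 (SE 0.22, edgeR adjusted p = 0.357). LOC109065759 was rare, with 0.568 ± 0.161 CPM in lead and 1.67 ± 0.448 in control libraries (SD, n = 3 each). LOC109098978 had 299 ± 13.4 CPM in lead and 220 ± 65.2 in control libraries (SD, n = 3 each), with overlap. Summed over the 6 period rows, CPM was 402 to 474 in lead and 233 to 399 in control libraries, a small margin at the nearest libraries. In lead replicate 2, the highest, LOC109057329 had 123 CPM, against 40.2 and 36.2 in lead replicates 1 and 3. In control replicate 1, the lowest, LOC109098978 had 155 CPM, against 286 and 220 in control replicates 2 and 3. Of 7 tested rows of the activators that cryptochromes inhibit, 0 were called by edgeR, and unadjusted p-values under 0.05 went to 1 higher and 3 lower rows. For the period and activator rows alike, the shares over all genes at that threshold were 7.53% higher and 8.77% lower. The 2 of smallest p encode BMAL-type activators (arntl), LOC109067828 at -0.83 (SE 0.15, edgeR adjusted p = 0.143) and LOC109059483 at -0.62 (SE 0.15, edgeR adjusted p = 0.181). The remaining lower row was a clock row, LOC109061883, at -1.09 (SE 0.31, edgeR adjusted p = 0.205). The other tested arntl rows went the other way. The 1 higher row was LOC109090352 at 0.72 (SE 0.25, edgeR adjusted p = 0.243), and LOC109071277 was at 0.43 (SE 0.28, edgeR adjusted p = 0.474).

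Of 49 tested rows in the list of other clock transcription factors, 6 rose and 0 fell by edgeR. Counting these 6, the rows whose unadjusted p was under 0.05 were 17 higher and 12 lower (7.53% and 8.77% over all genes, with 0.0467% called higher), and the list's median log2 fold change was 0.22. The 6 were the hlf rows LOC109105462 (2.63) and LOC109073116 (2.30), the nr1d1 rows LOC109051193 (1.79), LOC109046528 (2.48) and LOC109098115 (3.30), and the ciart row LOC109111947 (2.46), all as log2 fold changes. This list was drawn up with these calls known. It also holds rows described as protein timeless homolog and as TIMELESS-interacting protein. The other tested hlf rows were not called and went both ways. LOC109057068 (1.81), LOC109073676 (1.27) and LOC109051765 (0.53) were higher in lead. LOC109100011 (-2.13), LOC109099671 (-0.88) and LOC109051782 (-0.69) were lower, again as log2 fold changes.

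**Figure D5:**
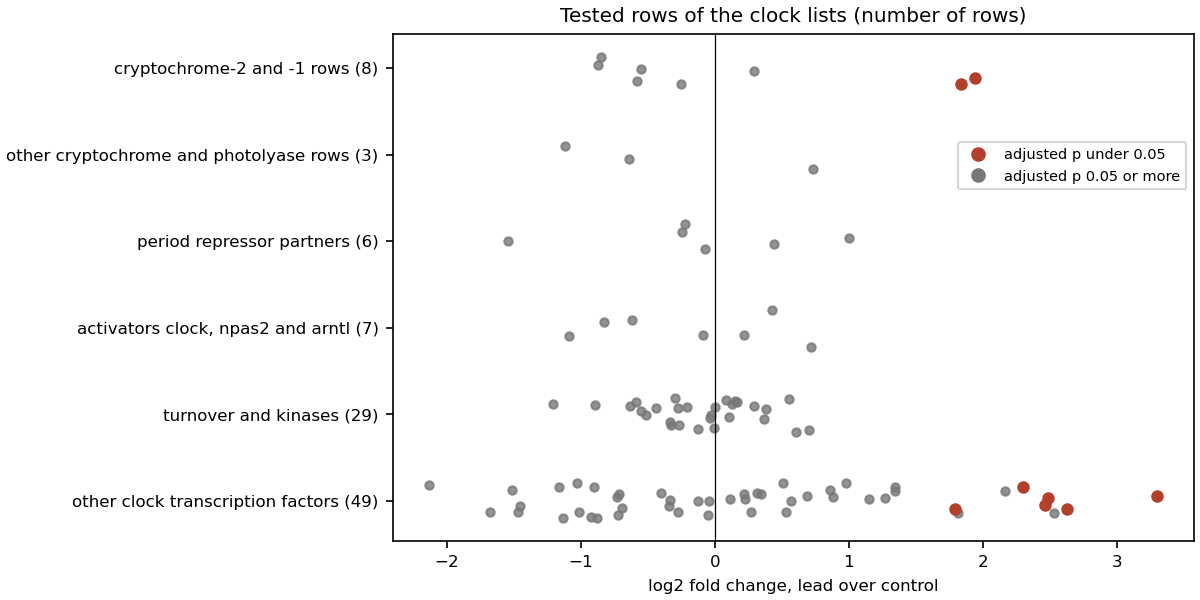
Each point is 1 tested row of a clock list (y axis, with jitter) at its log2 fold change of lead over control (x axis). Rows with an adjusted p under 0.05 are in red, 2 of the 8 cryptochrome rows and 6 of the 49 rows in the list of other clock transcription factors.

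The genes whose profile was most like that of cryptochrome-2 were ranked by Pearson's r of log2 CPM with the mean of both rows, over the same 6 libraries, as a description in which the difference between groups takes most of the variation. They were LOC109108784, described as septin-6 (r = 0.9969), the hlf row LOC109105462 (0.9964), LOC109094495, a ubiquitin-conjugating enzyme E2 A (0.9963), LOC109066737, a protein of unknown function (0.9956), and LOC109067654, a condensin-2 subunit (0.9954). Likeness of profile did not mean likeness of size. LOC109108784 had 266 to 269 CPM in lead and 227 to 232 in control libraries, while LOC109105462 had 101 to 115 in lead and 16.0 to 18.8 in control libraries. For the mean cryptochrome-1 profile the 5 were LOC109098515 (CXXC1, 0.9907), LOC109057900 (ERC2, 0.9899), LOC109109872 (BCAS3, 0.9897), LOC109074095 (hnRNP A1, 0.9886) and LOC109060965 (KIF1C, 0.9882). That mean of log2 values took in the rare row LOC109061929, with 5.21 CPM in control replicate 3 against 1.31 and 1.36 in control replicates 1 and 2. All 5 genes were also highest in control replicate 3. Likeness to the profile without LOC109061929 was not tested.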

How the data were processed

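Per the file headers, the authors deposited 1 table with, for each gene and library, a count of reads, in whole numbers without scaling, and an FPKM value. Per the submitters' processing notes, which give no roles, the tools were HISAT2 2.0, StringTie 1.3.0 and Bowtie 0.12.2, and the build mm8, a mouse build. Brain is the labelled tissue, although the labels' protocol mentions adipose. The sources used here do not say how strand, or reads shared between copies or overlapping rows, were handled.

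In R 4.3.3, edgeR 4.0.16 fitted the counts after TMM scaling by its quasi-likelihood test with the robust option, on the 32149 of 53152 rows with at least 1 FPKM in at least 3 libraries. P-values were adjusted by Benjamini-Hochberg over all rows tested, and a row was called under 0.05. SE is the absolute log2 fold change over the square root of F. The fit was tested on simulated data. Alternatives used limma 3.58.1, DESeq2 1.42.0, other scalings, filters and pseudocounts, a replicate block, and leaving out each library. RefSeq names (assembly ASM1834038v1) matched 5 of the 8 cryptochrome rows and 34840 rows in all. The genes to name were all 8 rows, the 2 of smallest p and any called in each list, and the 5 most like each profile (log2(CPM + 0.5)). Neighbouring rows were added afterwards. Further rows of the clock lists, glial fibrillary acidic protein and the rows with the KEGG entry for cryptochrome are also named outside this rule. The members, lists and tests were chosen with earlier results of these data known. Some rows of the list of turnover genes and kinases are not reported here and were left out of its counts.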

Additional observations from a re-analysis of the deposited data

How the results depend on the processing

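The log2 fold change of LOC109050575 ran from 1.70 to 2.01 over 19 alternatives and that of LOC109066089 from 1.71 to 2.12, with an unadjusted p under 0.05 for both in each, while LOC109050575 was called in 12 and LOC109066089 in 9 (highest adjusted p 0.123 and 0.113). Of the cryptochrome rows called higher, 2 with all libraries by edgeR, 1 was left with limma on log2(FPKM + 0.1), with limma on log2(FPKM + 0.01) and with library totals as the only scaling, 0 with edgeR without trend and robust steps, and 0 to 1 without 1 library. DESeq2 called 1 row lower (LOC109069230), against 0. Over all genes, 19 were called, against 9 with limma on log2(FPKM + 0.01), 30 without the filter, 1324 with DESeq2, 0 with edgeR without trend and robust steps (4938 at an unadjusted p under 0.05), and 2 to 25 without 1 library. With the replicate number as a block, 1 gene and 0 cryptochrome rows were called. The numbers are not stated to pair the libraries. Same-numbered libraries had correlations of deviations of 0.162, 0.0573 and 0.117, and differently numbered ones ran from -0.183 to 0.0721. LOC109061929 ran from -1.35 to 0.11 without 1 library, turning positive without control replicate 3, and no other row changed sign. Library totals moved the median log2 fold change of all genes to -0.11, against -0.01 with TMM. The log2 ratio of summed CPM stayed between 1.78 and 1.99 for cryptochrome-2 and between -0.45 and -0.23 for cryptochrome-1, with -0.31 without LOC109061929, a setting added after the data were seen. The 3 libraries a group, reads shared between copies and rows that may be pieces of 1 gene limit what single rows show. The cause of each lost call was not tested.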

Other observations

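A pair of rows outside the description search carried the table's KEGG orthology entry for cryptochrome. LOC109083588, described as a hypothetical protein, had 68, 36 and 63 counts in lead replicates 1, 2 and 3, against 41, 44 and 26 in control replicates 1, 2 and 3, and a log2 fold change of 0.77 (with SE 0.45 and edgeR adjusted p = 0.434). LOC109110038, described as uncharacterized, had 261, 135 and 184 counts in the lead libraries, against 90, 181 and 54 in the control libraries, and a log2 fold change of 1.009 (with SE 0.48 and edgeR adjusted p = 0.341). In TMM-scaled CPM the groups overlapped for LOC109110038. For LOC109083588 they did not, by a small margin, although its counts overlapped. Over all genes tested, 11.9% were higher without overlap.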
